A study of Gallus gallus with 26 samples.

Results

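Of the 8758 genes in the deposited table, 14 held a nearly constant level in the complexus muscle of broiler chickens (Gallus gallus) from embryonic day 15 (E15) to E21. They were chosen by their normalised counts, which are raw counts divided by 1 size factor per library. A gene was taken when the mean of its 5 day means was at least 100 and its highest day mean was at most 1.2 times its lowest. Of the 1155 genes at that level, the 14 made up 1.21%. Since the day means of all 26 libraries chose the genes, their constancy is a description and not a finding, and no test of a difference between days can support it.

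The complexus is a neck muscle that grows strongly before hatching and helps the chick to pip the shell, after which it shrinks again. The RNA came from frozen muscle of broiler chickens, and the days were covered unequally. E15 and E17 had 6 libraries each, E19 and E20 had 5 each, and E21 had 4. The labels give no treatment other than age, and the series description calls the last days hatch and chick placement. Library totals lay between 580768 and 2208872 counts. Neither sex, flock nor the number of birds behind a library is given in the sources used here, so the spread below is that between these samples and may be technical. In bulk muscle, fewer cells of a type and less RNA per cell cannot be told apart.

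Genes whose RNA keeps its level while a tissue remodels are of practical use. They serve as references in quantitative PCR, where the level of other genes is stated relative to them. Normalisation of sequencing data rests on a related idea: size factors of the median-of-ratios kind and TMM factors take the typical gene as unchanged and scale each library to it. A level that is constant on such a scale is constant relative to the typical gene, not necessarily as a share of all counts. The table lists Ensembl identifiers without gene names, and 0 of the 8758 identifiers matched the reference table of 25635 RefSeq genes. The roles of the 14 genes and the markers of the tissue are therefore not analysed here.

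The 14 genes lay in the lower part of the levels considered. Their means ran from 107.7 to 344 normalised counts with a median of 163, and they ranked between 385 and 1075 among all genes of the table. In raw counts, a single library held between 45 and 828 counts of a member. Of 531 genes with a mean from 100 up to 200, 10 (1.88%) were members, and of 341 genes from 200 up to 500, 4 (1.17%). None of the 283 genes with a mean of 500 or more met the rule. These are levels of counts and are not read as a ranking of RNA molecules between genes.

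The ratio of the highest to the lowest day mean had a median of 1.148 among the members, against 1.92 among the 1155 genes. A single gene of the 1155 stayed within a ratio of 1.1, 55 stayed within 1.3, 233 (20.2%) within 1.5 and 630 (54.5%) within 2. The limit of 1.2 cuts through a continuous range. The 3 members nearest to it had ratios of 1.191, 1.193 and 1.193, and the 3 genes just beyond it had 1.204, 1.204 and 1.207. At the other limit, the members with the lowest means stood at 107.7, 131 and 139.6 normalised counts. The nearest genes below a mean of 100 that met the ratio had means of 99.4, 91.7 and 91.0.

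**Figure D1:**
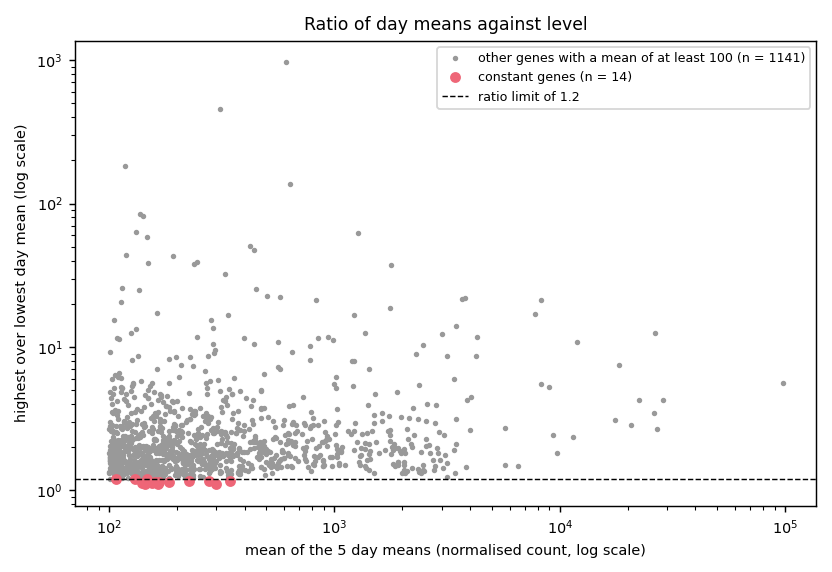
Each point is 1 of the 1155 genes with a mean of at least 100 normalised counts, with the mean of its 5 day means on the horizontal axis and the ratio of its highest to its lowest day mean on the vertical axis, both on log scales. The 14 constant genes lie under the dashed limit of 1.2 and at means between 107.7 and 344.

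The days on which the members were highest and lowest varied. The highest day mean was that of E21 for 5 members, E20 for 4, E15 and E19 for 2 each, and E17 for 1. The lowest was that of E19 for 5 members, E15 for 4, E20 for 3 and E17 for 2, and no member was lowest at E21. Given the spread between libraries, the order of such close means is not resolved for single genes. The counts of days were not taken over the other genes at this level, so no lean of the set towards a day is read from them. Of the 364 single values, 338 (92.9%) lay within 25% of the mean of their gene. The rule holds the day means close and so favours such values. The same share over all genes at this level was not counted, so no tightness particular to the members is read from it. The extremes were 0.6 and 1.47 times the gene mean.

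**Figure D2:**
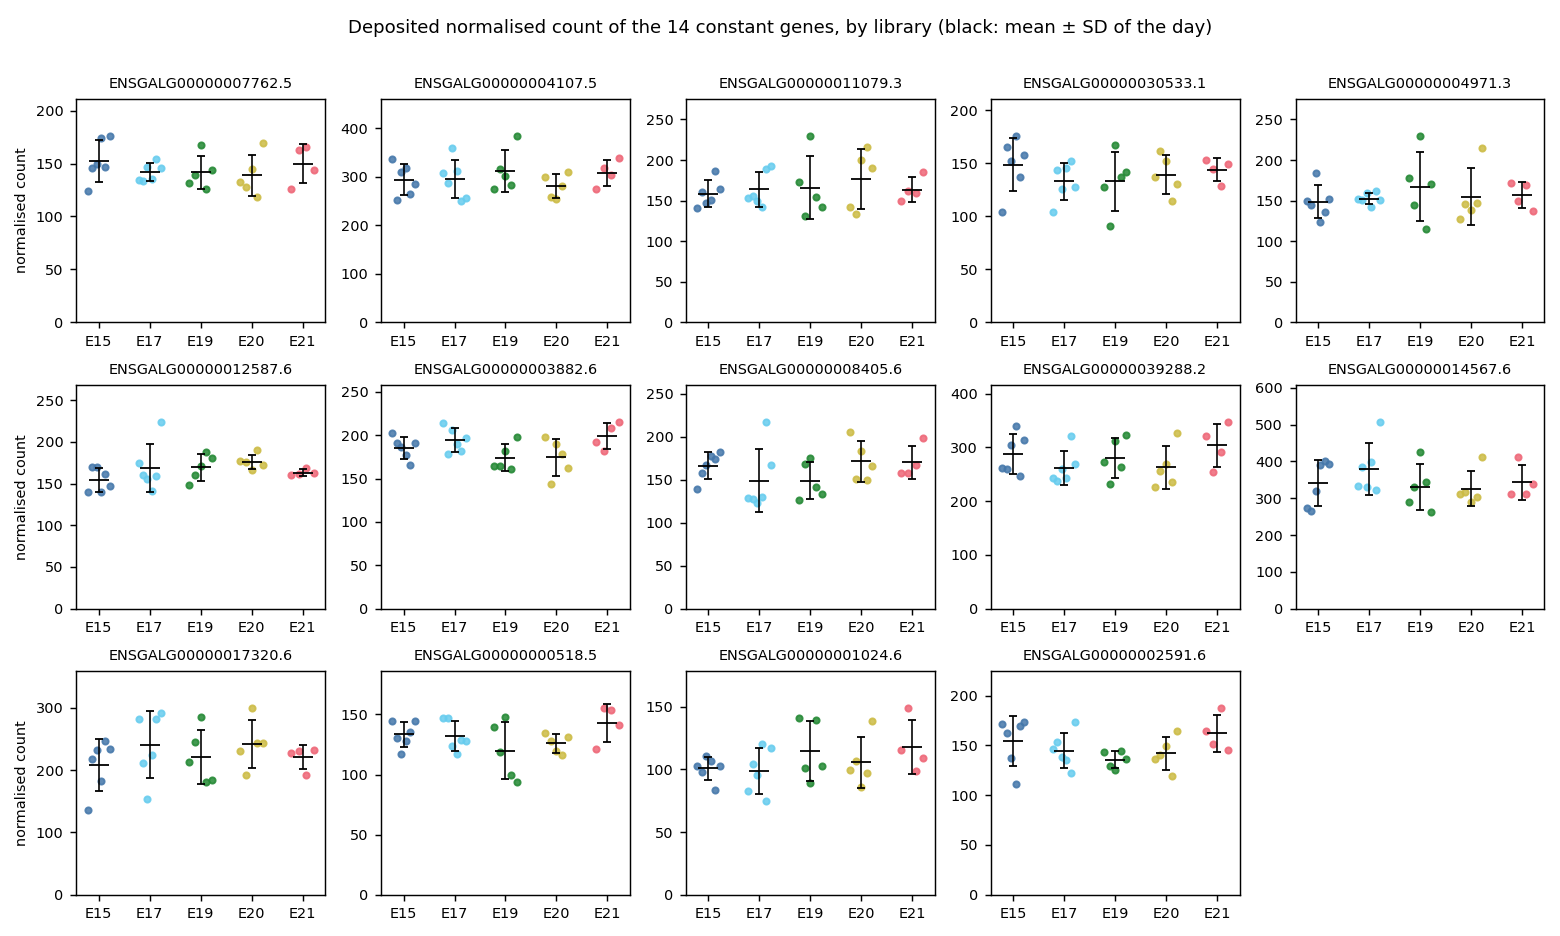
Each panel is 1 of the 14 constant genes in order of increasing ratio, each coloured point is 1 library, and black marks give the mean ± SD of the day in normalised counts. In 13 of the 14 panels every pair of days overlaps, and in the last panel the E19 points lie below all E21 points.

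The gene with the lowest ratio was ENSGALG00000007762.5, whose highest day mean was 1.099 times its lowest. At E15 and E17, the lowest, median and highest libraries stood at 123.8, 148 and 176, and at 134, 141 and 155. The 5 libraries of E19 stood at 132, 139.5, 167, 126.2 and 143, and those of E20 at 133, 128, 145, 118 and 169. The 4 libraries of E21 stood at 126.2, 163, 166 and 144. The days overlapped throughout, and no library was beyond 25% of the gene's mean of 145. The highest day was E15, with a mean of 153 ± 19.6 (SD, n = 6). The lowest was E20, with 139 ± 19.5 (SD, n = 5). The difference between these days was thus smaller than the SD within either of them.

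ENSGALG00000004107.5 came next with a ratio of 1.11 and a mean of 298 normalised counts. At E15 and E17, the lowest, median and highest libraries stood at 252, 298 and 336, and at 251, 298 and 359. The 5 libraries of E19 stood at 275, 316, 301, 283 and 384, and those of E20 at 299, 258, 255, 282 and 311. The 4 libraries of E21 stood at 274, 318, 303 and 338. Again every pair of days overlapped. E19 had the highest mean, 312 ± 43.4 (SD, n = 5), and its replicate 6 held the gene's highest value in any library. E20 had the lowest mean, 281 ± 24.8 (SD, n = 5).

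ENSGALG00000014567.6 held the most normalised counts of the set, with a mean of 344 and a ratio of 1.16. At E15 and E17, the lowest, median and highest libraries stood at 265, 356 and 402, and at 323, 359.5 and 507. The 5 libraries of E19 stood at 290.3, 329.6, 425, 345 and 264, and those of E20 at 311, 316, 289, 304 and 412. The 4 libraries of E21 stood at 310.1, 413, 311 and 339. Every pair of days overlapped, and each day held libraries that differed by more than the day means did. The E17 mean of 379 ± 69.9 (SD, n = 6) was the highest, with 1 library at 507, and the E20 mean of 326 ± 48.8 (SD, n = 5) was the lowest. Its pooled coefficient of variation (CV) within days was 17.5%.

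ENSGALG00000003882.6 varied least between libraries of a day, with a pooled CV of 8.62%. With the variance of a count taken as its mean, counting alone gives a CV of 7.59% at its level and these depths. On that assumption, little spread between libraries was left beyond it. At E15 and E17, the lowest, median and highest libraries stood at 166, 188 and 203, and at 178, 193 and 214. The 5 libraries of E19 stood at 164, 164, 182, 162 and 198, and those of E20 at 198, 144, 189.6, 179 and 163. The 4 libraries of E21 stood at 192, 181, 208 and 215. Its E19 and E20 means were the lower ones, 174 ± 15.9 (SD, n = 5) and 175 ± 21.6 (SD, n = 5). The E21 mean was the highest at 199 ± 15.4 (SD, n = 4), and the libraries of these days still overlapped.

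ENSGALG00000012587.6 had the next lowest CV, 10.6%. At E15 and E17, the lowest, median and highest libraries stood at 139.5, 154 and 171, and at 141, 160.2 and 224. The 5 libraries of E19 stood at 148, 160.5, 171, 188 and 181, and those of E20 at 177, 176, 167, 189.8 and 172. The 4 libraries of E21 stood at 159.9, 161, 169 and 163. At E21 its libraries lay close together, with a mean of 163 ± 4.1 (SD, n = 4). With the variance of a count taken as its mean, counting alone gives a CV of 8.02% for this gene at the average depth. That is more than the spread at E21, so the closeness is not read as a trait of the gene. The day means ran from 155 ± 14.4 (SD, n = 6) at E15 to 176 ± 8.56 (SD, n = 5) at E20, a ratio of 1.14. E17 replicate 6 held the gene's highest value, 224, while the other E17 libraries did not exceed 175.

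ENSGALG00000002591.6 was the member closest to the limit, with a ratio of 1.193, and the member with the smallest p in the test of any difference between days described below. At E15 and E17, the lowest, median and highest libraries stood at 111, 166 and 174, and at 122, 142 and 174. The 5 libraries of E19 stood at 144, 129.6, 125, 144 and 136, and those of E20 at 136, 140.5, 149, 119 and 164. The 4 libraries of E21 stood at 164, 151, 187 and 145. The highest E19 library, at 143.9, lay just below the lowest E21 library, at 145.0. It was the single pair of days, among 140 such pairs over the 14 genes, in which the libraries did not overlap. The means were 136 ± 8.4 (SD, n = 5) at E19 and 162 ± 18.6 (SD, n = 4) at E21.

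The other 8 members had means between 107.7 and 279 normalised counts. ENSGALG00000011079.3 had a ratio of 1.11 and ran from 158 ± 16.5 (SD, n = 6) at E15 to 176 ± 36.6 (SD, n = 5) at E20. ENSGALG00000030533.1 had a ratio of 1.12, with 133 ± 27.5 (SD, n = 5) at E19 as its lowest day and 149 ± 25.3 (SD, n = 6) at E15 as its highest. For ENSGALG00000004971.3 the lowest mean was 148 ± 20.3 (SD, n = 6) at E15 and the highest was 167 ± 42.5 (SD, n = 5) at E19. The libraries of these days overlapped in all 3 genes, and for ENSGALG00000004971.3 the E19 libraries alone reached from 115.1 to 229.6 normalised counts.

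ENSGALG00000008405.6 stood at 149 ± 21.6 (SD, n = 5) at E19 and at 171 ± 23.7 (SD, n = 5) at E20. In ENSGALG00000039288.2 the extremes were E17, with 262 ± 31.2 (SD, n = 6), and E21, with 304 ± 39.5 (SD, n = 4). ENSGALG00000017320.6 had the largest CV of the set, 18.8%, and ran from 208 ± 41.5 (SD, n = 6) at E15, where 1 library held 136, to 242 ± 38.5 (SD, n = 5) at E20. These 3 genes had ratios of 1.151, 1.16 and 1.16.

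ENSGALG00000000518.5 had a ratio of 1.191, between 119.8 ± 23.7 (SD, n = 5) at E19 and 143 ± 15.8 (SD, n = 4) at E21. ENSGALG00000001024.6, the member with the lowest mean, ran from 99.1 ± 18.3 (SD, n = 6) at E17 to 118 ± 21.5 (SD, n = 4) at E21. Both genes came close to the limit, and both had their highest day mean at E21. The E21 libraries of ENSGALG00000001024.6 lay at 115.3, 149, 99.1 and 109.

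How tightly the data bound the constancy was described by 95% confidence intervals of the 10 differences between days, from limma on log2(normalised count + 1). For all 14 members, all 10 intervals lay within 1.5-fold in either direction. That count was 13 with TMM factors, and it was 12 or 13 in 20 of the 26 settings that left out 1 library. With all libraries and the deposited scale, the same held for 36 (3.12%) of the 1155 genes at this level. The rule used these day means, so the count of members is fixed in part by the choice and nothing is read from it. The widest bound of a member had a median of 1.38-fold and reached from 1.29-fold in ENSGALG00000007762.5 to 1.496-fold in ENSGALG00000001024.6. Over the 1155 genes its median was 2.34-fold.

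Among the largest differences of each member, that of ENSGALG00000000518.5 was 0.27 on the log2 scale from E19 to E21, with an interval from 1.4e-05 to 0.53, just above 0. For ENSGALG00000001024.6 the difference of E21 from E17 was 0.26, with an interval from -0.07 to 0.58. In ENSGALG00000002591.6 it was 0.25 from E19 to E21, with an interval from -0.03 to 0.52. These intervals are not adjusted for the choice of the largest of 10 differences, nor for the rule, which limited the day means they rest on. For these 2 reasons no difference is read from the interval of ENSGALG00000000518.5. In the edgeR quasi-likelihood F test of any difference between days, described below, this gene had an unadjusted p of 0.343. That test rests on the same day means and covers all 5 days at once, so it cannot decide about the single difference.

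**Figure D3:**
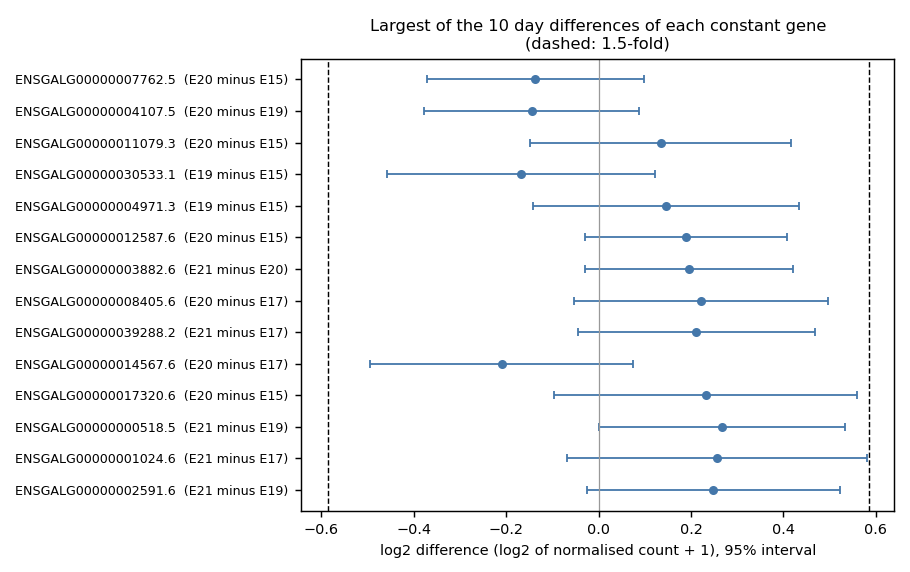
For each of the 14 constant genes, in order of increasing ratio from the top, the point is the largest of the 10 differences between days on the scale of log2(normalised count + 1) and the bar is its 95% confidence interval, with the days named at the left. All bars lie between the dashed lines at 1.5-fold, and that of ENSGALG00000000518.5 starts just above 0. The bars are not adjusted for the choice of the genes or of the largest difference.

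When any difference between the 5 days was tested with edgeR (quasi-likelihood F test), 0 of the 14 members passed an adjusted p of 0.05 (Benjamini-Hochberg over 5901 genes). None of them had an unadjusted p under 0.05, and 0 passed in the likelihood ratio test of DESeq2, in which 4947 (56.5%) of 8751 genes differed. Of all 5901 genes tested with edgeR, 4195 (71.1%) differed, and of the 1155 with a mean of at least 100, 1069 (92.6%) did. The smallest adjusted p-values of members were 0.281 for ENSGALG00000002591.6 and 0.287 for ENSGALG00000003882.6, the largest 0.845 for ENSGALG00000004971.3. The F statistic had a median of 0.747 over the members and 15.1 over the 1155 genes. Of the latter, 1031 (89.3%) had at least 1 pair of days whose libraries did not overlap, against 1 of the 14 members. The same values chose the members, so these counts restate the rule, and a p above the threshold does not show equal levels.

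The authors' deposited table gives the same genes small differences. Across the 14 members, its log2 fold changes lay between -0.17 and 0.20 for E17 against E15 and between -0.19 and 0.20 for E19 against E17. They lay between -0.15 and 0.20 for E20 against E19 and between -0.14 and 0.22 for E21 against E20 in the authors' deposited table. For samples after against before hatching they lay between -0.08 and 0.14, and the lowest adjusted p of the table over these 5 comparisons was 0.275, for ENSGALG00000008405.6 after hatching. The authors' deposited table called 0 of the 14 in any comparison, which its minimum log2 fold change of 1 fixes, and put none of them in its clusters of 917 genes attributed to DESeq2 or of 344 genes attributed to maSigPro. Of the 1155 genes at this level, 21.7% were in the former and 14% in the latter. The former are labelled as clusters of genes called between successive days, so the absence of members from them is fixed by the same limit. All these comparisons and clusters rest on the same libraries as the rule, and nothing is read from the counts of 0.

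The spread between libraries of the same day was not part of the rule, although a small spread makes close day means more likely, and it is therefore given without a test. The pooled CV within days of the members had a median of 14.2% and ran from 8.62% to 18.8%. Over the 1155 genes the median was 15.3%. Counting error at their levels gives the members a median CV of 8.1%. After it is removed, a median of 12.01% remained, from 4.09% in ENSGALG00000003882.6 to 17.5% in ENSGALG00000017320.6, against 13.5% over the 1155 genes.

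**Figure D4:**
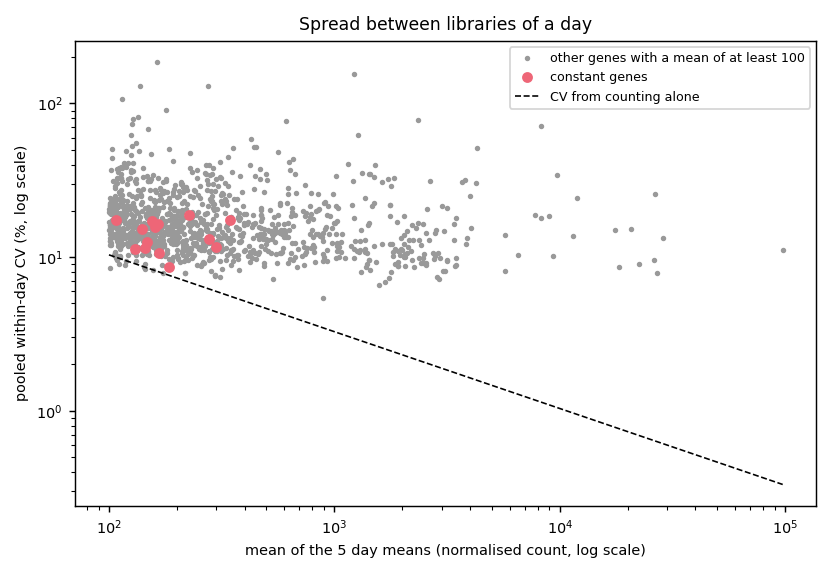
The pooled coefficient of variation between libraries of the same day, in percent, is plotted against the mean of the 5 day means in normalised counts for the 1155 genes, both on log scales. The dashed line shows the value from counting alone, with the variance of a count taken as its mean. The 14 constant genes lie between 8.62% and 18.8%.

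The libraries named here were picked as the extremes of all libraries, and whether the members share part of that spread was not tested. When each value was divided by its gene's mean and the median taken over the 14 genes, E19 replicate 3 stood at 1.13, whereas the other E19 libraries lay between 0.932 and 0.972. In this library 8 of the 14 members had their highest E19 value and 2 had their lowest. Relative to the E19 day means, the median of the members was 1.18 in that library and that of the 1155 genes was 1.05. In the other E19 libraries the median of the 1155 genes lay lower, between 0.960 and 0.991. In E20 replicate 5 the median of the members was 1.09 times the gene mean, and 7 members had their highest E20 value there and 0 their lowest. Relative to the E20 day means, the median in that library was 1.09 for the members and 1.01 for the 1155 genes. The lowest library was E15 replicate 1 at 0.902, where 6 members had their lowest E15 value and 2 their highest. Relative to the E15 day means, the median there was 0.906 for the members and 1.01 for the 1155 genes. How many of the 1155 genes had their highest or lowest value of the day in these libraries was not counted. The counts of members are therefore not read as an excess. Whether a technical or a biological difference lies behind these libraries was not tested.

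Without E19 replicate 3 the rule took 11 genes, 10 of them among the 14. The median difference of the 14 genes from E19 to E21 then was 0.15 on the log2 scale, against 0.07 with all libraries, and without E21 replicate 3 it was 0.01. Over all 26 ways of leaving out 1 library, between 11 and 17 genes met the rule, of which between 10 and 14 were among the members. The number of members that met it in all 26 was 6, namely ENSGALG00000007762.5, ENSGALG00000004107.5, ENSGALG00000011079.3, ENSGALG00000030533.1, ENSGALG00000012587.6 and ENSGALG00000003882.6. ENSGALG00000001024.6 met it in 18, the fewest. The highest ratio that leaving out a library gave to any member was 1.27.

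The constancy of the 14 genes holds on the deposited scale and not as a share of all counts. Together they held 0.273% ± 0.0187 (SD, n = 6) of all counts in the E15 libraries. The E17 libraries had a share of 0.230% ± 0.0129 (SD, n = 6), and for E19 it was 0.190% ± 0.0158 (SD, n = 5). By E20 their share stood at 0.244% ± 0.0217 (SD, n = 5), and E21 followed with 0.332% ± 0.0160 (SD, n = 4). The E19 libraries lay between 0.18% and 0.217% and the E21 libraries between 0.31% and 0.348%, so that these days were far apart. By construction, the share moves opposite to the ratio of library totals to size factors. That ratio, on a common scale, ran from 0.855 to 0.936 in the E15 libraries. It reached 1.198 to 1.34 in those of E19 and was 0.741 to 0.814 in those of E21.

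With library totals as the scale, all 14 members were lowest at E19 and all 14 highest at E21. Their ratios of highest to lowest day mean then ran from 1.56 in ENSGALG00000004971.3 to 1.97 in ENSGALG00000000518.5, with a median of 1.73. The log2 difference of E21 from E19 lay between 0.66 and 0.99 on that scale. Genes chosen for near-equal day means on the deposited scale take on the pattern of the ratio of totals to size factors, so this order of days is set by the choice and is given as a description. On library totals 14 of the 14 members and 85.6% of the 5901 genes differed between days in edgeR. The share of the 1155 genes that differed on that scale was not counted. The choice of the members also favours such a difference, so nothing is read from the 14. The 10 intervals stayed within 1.5-fold for 0 members and for 2.34% of the 1155 genes. A different set of 11 genes met the rule on library totals, and 0 of them were among the 14. On the deposited scale these 11 genes had ratios from 1.48 to 1.90, and all 11 were highest at E19 and lowest at E21, which the scale sets in the same way.

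TMM factors gave nearly the same picture as the deposited size factors. The members' ratios lay between 1.103 and 1.21 with them. The rule took 14 genes on that scale, 11 of them among the members, and the other 3 members passed 1.2 by little. For ENSGALG00000002591.6 the TMM ratio was 1.215, for ENSGALG00000000518.5 1.213 and for ENSGALG00000001024.6 1.209. The median over the members with TMM factors was 0.999 ± 0.0610 (SD, n = 6) of the gene mean for E15. For E19 it was 0.970 ± 0.0746 (SD, n = 5), and E21 stood at 1.03 ± 0.0222 (SD, n = 4). With library totals these values were 1.07 ± 0.0725 (SD, n = 6), 0.746 ± 0.0605 (SD, n = 5) and 1.29 ± 0.0461 (SD, n = 4).

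**Figure D5:**
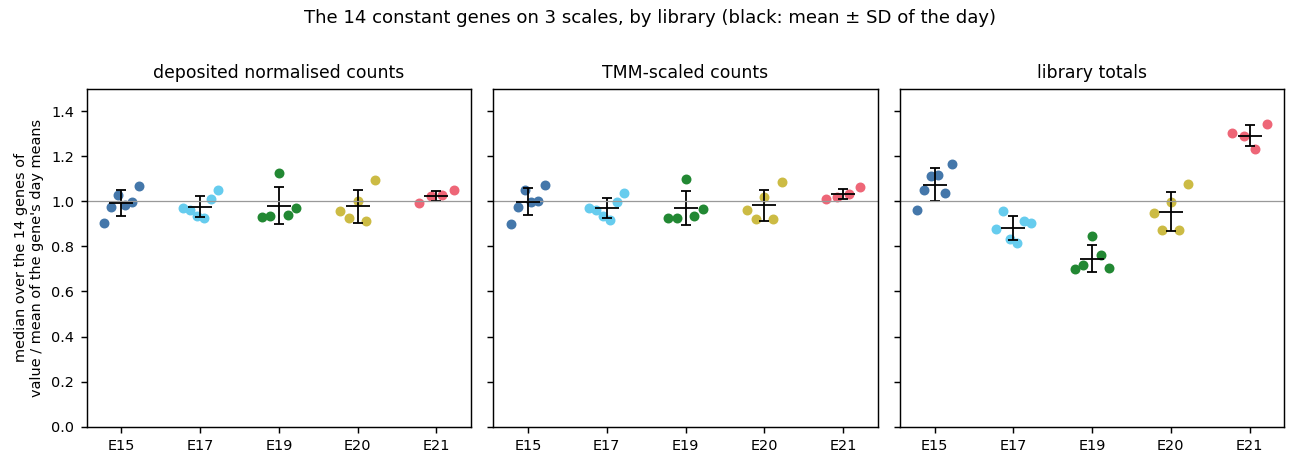
For each library (point), the median over the 14 constant genes of the value divided by the gene's mean is shown on the deposited scale, with TMM factors and with library totals; black marks are the mean ± SD of the day. The points stay between 0.902 and 1.13 on the deposited scale, whereas with library totals the E19 mean falls to 0.746 and the E21 mean stands at 1.29.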

How the data were processed

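The 26 libraries were made from total RNA of complexus muscle. MARS-Seq is named in the series' design text, and the tools listed in the submitters' processing notes are DESeq2, HTSeq 2.0.2 and STAR 2.7.10a. For the genome build, annotation, strand and molecular identifiers, nothing is given in the sources used here. How reads of near-identical or overlapping genes were counted is therefore not known. The authors deposited raw counts and, per the file headers, a normalised signal called normalised counts. For genes with 100 or more counts, the raw count over this signal was the same size factor throughout a library to within a relative difference of 0.000125. The deposited log2 fold changes, the authors' adjusted p-values, calls and clusters were used as deposited.

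The constant genes were chosen with earlier results of these data known, as were the tests. Day means, ratios and pooled CVs were computed with pandas 2.3.3. The counting part of a CV took the variance of a count as its mean. edgeR 4.0.16 in R 4.3.3 fitted the counts of all 26 libraries with day as the only term, TMM factors and filterByExpr (minimum count 10, minimum total 15), which kept 5901 genes with 99.2% of the counts. Intervals came from limma 3.58.1 on log2(normalised count + 1), with a variance trend, over the same genes. Both were run on simulated data that had the same dispersion for all genes and no choice of constant genes. The simulated spread between libraries was set lower than the common value of 19.2% that edgeR estimated from the data. Nothing is read from that run here. How the F test and the intervals behave for genes chosen as the members were was not tested. Alternatives were TMM factors, library totals, other limits, DESeq2 1.42.0, other pseudocounts, a replicate block and leaving out each library. For comparison between scales, TMM and library-total scales were brought to the average of the size factors. The genes shown library by library were the members with the 2 lowest ratios, the 2 highest means, the 2 lowest CVs and the 2 smallest adjusted p-values. The other members were added because the set is small. The gene lists and cell type markers planned need names and are not analysed here. No symbol, sequence or position could be attached to the identifiers.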

Additional observations from a re-analysis of the deposited data

Results flagged for a closer look

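In the 75 groups of libraries tested (each member on each day, and the median of the 14 genes on each day), 4 held a library far from the others of its day. Chance alone gives about 1 in 20, and 4 of 75 is close to that share, so nothing is read from the count. The groups are also not independent, since the median is taken over the same members. ENSGALG00000004971.3 stood at 215 normalised counts in E20 replicate 5, while none of the other E20 libraries was above 148. In the same library ENSGALG00000014567.6 stood at 412, against 289 to 316 in the others. ENSGALG00000017320.6 stood at 191 in E21 replicate 5, below the other E21 libraries, which lay between 228 and 233. The median of the 14 genes, relative to each gene's mean, was 1.13 in E19 replicate 3, with the others between 0.932 and 0.972.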

How the results depend on the processing

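The number of constant genes followed the limits: with a ratio limit of 1.1 there was 1, with 1.3 there were 55, with a minimum mean of 50 there were 40 and with a minimum of 200 there were 4. With day medians in place of means 13 genes met the rule, 8 of them among the 14. With library totals, 14 members differed between days in edgeR, as did 5052 of all 5901 genes, and 0 members were bounded within 1.5-fold. Both counts of members follow in large part from the choice of the genes. On that scale the median log2 difference of the members was -0.55 from E15 to E19 and 0.79 from E19 to E21, against -0.04 and 0.07 on the deposited scale. Leaving out 1 library gave 0.0114 to 0.152 for the difference from E19 to E21. The number of members bounded within 1.5-fold was 13 with TMM factors and 12 to 14 when 1 library was left out. With the replicate block, 0 members differed and 12 were bounded within 1.5-fold. Of 45 pairs of libraries with the same number on different days, 0 had deviations correlated above 0.1, so the numbers were not taken to pair the libraries. With the block 4019 genes of 5901 differed, against 4195 without it. In every other alternative run 0 members differed. These runs were DESeq2 size factors in edgeR, DESeq2, no filter on low counts and each of the 26 libraries left out. The same 14 genes, chosen on all 26 libraries, were used in each of them. These counts, and those of bounded members, therefore largely restate the rule and are no support for constancy. With the variance of a count taken as its mean, counting error alone gives the members a median CV of 8.1%. On that assumption, a median of 12.01% remains beyond it. The effect of depth on the bounds was not tested.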
